A study of Mus musculus with 4 samples.

Results

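The genes described here are 10 integrin genes of hair follicle stem cells (HF-SCs) whose products act outside the hemidesmosome: *Itgb1* and its partner chains *Itga2*, *Itga3*, *Itga5*, *Itga8* and *Itga9*, and *Itgav* with *Itgb5*, *Itgb6* and *Itgb8*. They were chosen by name, with leukocyte, platelet and some other integrins kept as separate lists, and were taken by symbol from the deposited comparison, with a mean above 0 as the only measured condition, and they are 10 of 17044 genes with such a mean. HF-SCs were sorted from mouse back skin at postnatal day 44 as live cells with high H2BGFP, α6 and CD34 and no Sca1, and RNA was sequenced in 2 libraries of control mice and 2 of *miR-205* induced mice after 2 d of doxycycline chow, begun on day 42. The induced mice carried a *miR-205* transgene under a doxycycline response element together with rtTA driven by the keratin 14 promoter, so induction is limited to cells in which that promoter is active. Control mice were gender-matched littermates, and both groups carried the Krt14-H2b-GFP allele that the sort used. The labels give the strain as C57BL/6, although the transgene was first injected in FVB, and list the controls as untreated, whereas the protocols have both groups fed doxycycline. Whether a library came from 1 mouse or from several is not given in the sources used here. The p-values thus measure the spread between these libraries, largely as pooled over genes, and that spread may be technical.

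Integrins are cell surface receptors made of an α and a β chain. Outside the cell they hold proteins of the extracellular matrix. Inside it talin and kindlins tie most, but not all, β tails to the actin cytoskeleton, so that such integrins carry force between the matrix and the cell. In skin the hemidesmosome uses α6β4, which binds keratin filaments instead, while the β1 integrins sit in actin-linked adhesions and the αv integrins also release active TGF-β from its latent complex in the matrix.

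A microRNA lowers its targets by pairing its seed with the 3′UTR of a transcript, and the mature sequence is therefore shown with the only exact 7-base matches found among the 10 genes. The first line is mature mouse *miR-205* from RefSeq (GRCm38.p6 table) with bases 2 to 8 in capitals. The other lines are the matches in the transcript sense, with the 7 bases that pair with that seed in capitals.
mmu-miR-205-5p: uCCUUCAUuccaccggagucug
Itgb6 3′UTR: tcattcagggcATGAAGGtgagacattgt
Itgb8 3′UTR: ctaccttctttATGAAGGtttgtaaatct
In the longest annotated 3′UTR of each gene (GENCODE vM1 on NCBIM37), ATGAAGG was present in 2 of the 10 genes, once in *Itgb6* and once in *Itgb8*, and in 12.3% of the 11401 tested genes with a 3′UTR. Only the transcript strand was searched. The *Itgb6* match lies on the minus strand at chr2:60438394-60438400, in exon 15 of 15, and begins at base 142 of a 3′UTR of 2193 bases. The *Itgb8* match lies on the minus strand at chr12:120396989-120396995, in exon 14 of 14, and begins at base 4595 of a 3′UTR of 5095 bases. The shorter match TGAAGG, which pairs with bases 2 to 7 and is contained in ATGAAGG, was also present in *Itga5*, *Itga9* and *Itgb5*, which makes 5 of the 10 genes against 38.6% of tested genes. The 3′UTRs of *Itgb1*, *Itga2*, *Itga3*, *Itga8* and *Itgav* held neither. This says nothing of binding, and *Itgav* stands in the study's own list of transcripts captured with *miR-205*. A match is a description of the sequence and not a site shown to be used.

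The deposited table gives 1 mean normalised count per gene over the 4 libraries and no value for a single library. The 4 whole read counts behind each mean were recovered, except in 31 genes. They are used here as counts divided by the size factor of the library, called normalised counts. For means of 1000 or more, as for *Itga2*, *Itga3*, *Itgav*, *Itgb1* and *Itgb5*, the deposited fold change and standard error chose among possible counts. The group differences of such genes are thus not independent of the authors' comparison. The groups are named by the table's induced over control direction. Libraries could not be tied to the replicate numbers of the labels, so those of a group are called deeper and shallower. Recovered depth was 13963552 and 7711886 reads for the control libraries and 11634219 and 9777692 for the induced libraries. The row named *Mir205* held 17 and 8 reads in the control libraries and 8 and 1 in the induced libraries. Mature microRNAs are too short for libraries of this kind, so this row is no measure of the induction, and the induction was not checked from these data. Of 9 HF-SC markers, 5 had recovered counts and were present in every library, and none was called. All 5 differences lay below 0, with a median log2 difference of -0.12. Each of the 5 had a mean above 1000, and the median of the 2422 genes tested with a mean of 1000 or more was -0.15. *Cd34*, which the sort also used, had 16043 and 16951 normalised counts in the control and 12524 and 12780 in the induced libraries. *Nfatc1* had 6312 and 6267 against 5287 and 4690. Both induced libraries were lower in each, as in 24.4% of genes tested. *Lgr5*, *Sox9* and *Lhx2* lay between 2897 and 6375 with overlapping groups. Markers of some other cells differed as well. The 7 myeloid and Langerhans markers summed to 2368 and 2784 normalised counts in the control libraries and to 5370 and 4550 in the induced libraries. *Cd74* made up most of these sums, with 1634 and 2101 against 3934 and 3308. Both induced libraries lay above both controls for 6 of the 7 markers, where 22.9% of genes tested did. Of the 7, 2 were called as rises, *Cd74* and *Lyz2*, where 1.61% of genes tested were called in either direction. *Cd207*, the Langerhans marker of the list, overlapped between the groups, with a log2 difference of 0.11. The 6 fibroblast markers summed to 16332 and 9509 against 11422 and 19343 with none called. The suprabasal markers *Krt1* and *Krt10* summed to 6674 and 7030 in the control libraries and to 8306 and 15108 in the induced libraries, and neither was called. Melanocyte markers summed to 830 and 335 against 668 and 1949, and endothelial markers to 92.2 and 39.1 against 91.6 and 113. Both sums overlapped between the groups, with median log2 differences of 1.07 and 1.00 and no gene called. The part of these cells in the integrin values was not tested. In bulk RNA fewer cells of a type and less RNA per cell cannot be told apart.

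None of the 10 integrin genes was called. With limma on log2(normalised count + 1) and an adjusted p under 0.05, 0 of 10 passed, against 1.61% of the 12660 genes tested, and limma with voom weights also called 0 of 10. The study used littermate controls in pairs, but which control library goes with which induced library is not known, and the count rested on it: with a replicate block, 0 of 10 passed with the deeper control paired with the deeper induced library (123 of all genes called), and 3 of 10, *Itga2*, *Itgb1* and *Itgb6*, with the deeper control paired with the shallower induced library (1024 of all genes called). Neither pairing was chosen over the other, and either block leaves fewer residual degrees of freedom than the 2 of the main fit. At an unadjusted p under 0.05 the number was 3 of 10, *Itgb1*, *Itgb6* and *Itga5*, all lower in the induced libraries, against 15.8% of all genes tested. Both induced libraries lay below both control libraries for 4 of 10 genes, where 24.4% of genes tested did, and above both for 1 of 10, where 22.9% did. The median log2 difference of the 10 genes, induced minus control, was -0.13, beside 0.01 for all genes tested. Its lowest value was -0.24 with a mean of at least 50, which leaves out *Itga8* and *Itga9*. Its highest was 0.01 after scaling by the total count, here and below that of the recovered genes only, where the median of all genes was 0.15. The median of the 10 genes was -0.06 with bin medians subtracted, -0.03 without the shallower and -0.22 without the deeper induced library. All 10 passed the filter on low values, a mean normalised count of at least 10.

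**Figure D1:**
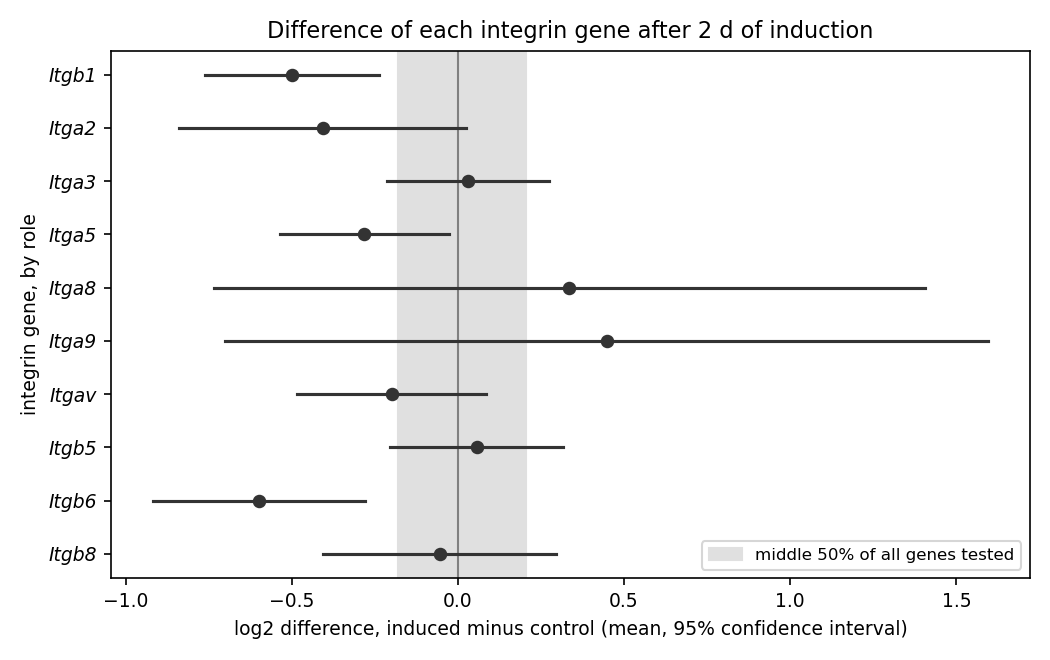
Log2 difference of each integrin gene, induced minus control, with its 95% confidence interval from limma (points and lines), against the middle 50% of all genes tested (grey band, -0.18 to 0.20). The intervals of Itgb1, Itgb6 and Itga5 lie wholly below 0, and those of Itga8 and Itga9 are the widest.

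The levels spanned a wide range. Divided by the length of the transcript with the longest coding sequence, the mean level over the 4 libraries went from 2127 normalised counts per kb for *Itgb1* to 2.55 for *Itga9*, an 834-fold range. *Itgb1* ranged from 1703 to 2640 per kb over the libraries and did not overlap *Itga3*, the next gene, at 822 to 917 per kb. *Itga3* in turn did not overlap *Itgb5*, at 342 to 402 per kb. These leading places therefore did not depend on which library was read. *Itgb5* overlapped *Itga2*, at 221 to 410 per kb, and *Itga2* overlapped *Itgav*, at 209 to 275 per kb. *Itga5*, at 155 to 199 per kb, lay below *Itgav* and overlapped *Itgb6*, at 113 to 201 per kb. The order of *Itgb5*, *Itga2* and *Itgav* among themselves, and of *Itga5* and *Itgb6*, was thus within the spread of the libraries, and it also turned with the length used: per kb of coding sequence *Itgav* came before *Itgb5* and *Itga2*, and *Itgb6* before *Itga5*. *Itgb8*, at 57.1 to 76.1 per kb, stood apart from the genes above it and was 19.2-fold above *Itga8*. *Itga8* and *Itga9*, at 2.40 to 3.80 and 1.84 to 3.69 per kb, overlapped each other. These last genes rest on 10 to 26 and on 12 to 25 reads per library, so their values carry large counting error.

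**Figure D2:**
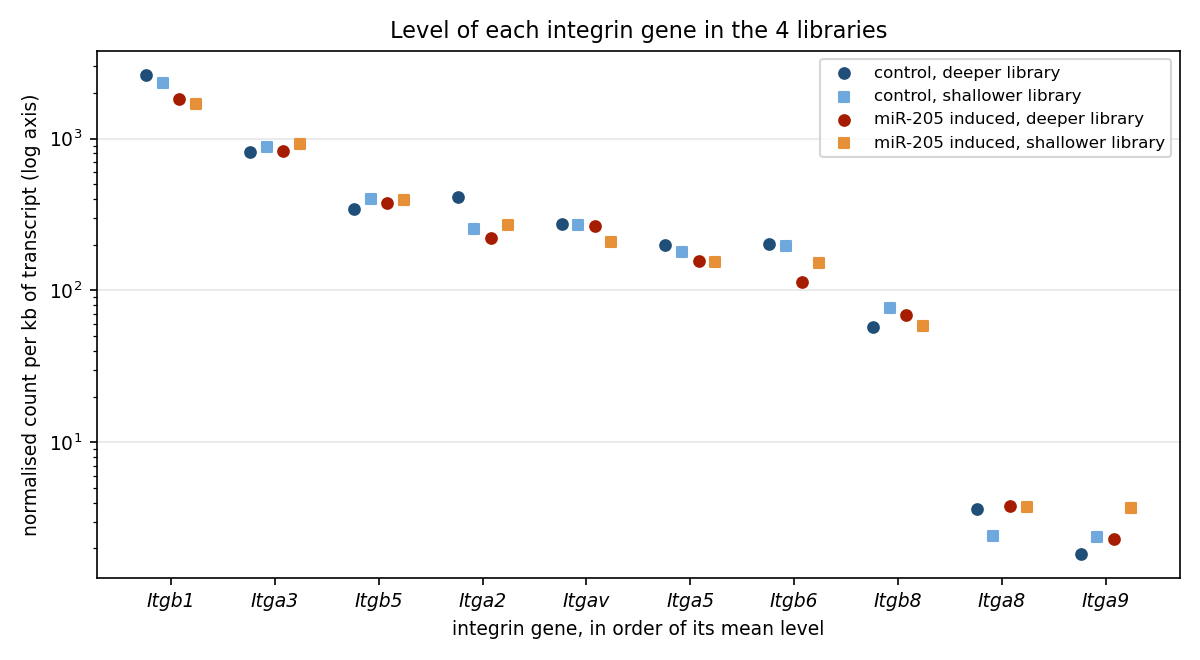
Normalised count per kb of transcript (log axis) of each integrin gene in the 4 libraries, in order of the mean level. Itgb1 and Itga3 stand apart at the top, and Itga8 and Itga9 lie 19.2-fold or more below Itgb8, the gene next above them.

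*Itgb1* encodes the β1 chain, the common partner of all the α chains described here, αv included, and lies at NCBIM37 chr8:131209554-131257100 on the plus strand. It had 10071 normalised counts in the deeper and 8944 in the shallower control library, and 6951 in the deeper and 6497 in the shallower induced library. The groups did not overlap, and the gap between them exceeded the gap within each pair. The log2 difference was -0.50 with a standard error of 0.12 and a 95% interval from -0.76 to -0.24, which leaves 70.8% of the control level (interval 59.1% to 84.9%). The adjusted p of limma was 0.0672, above the threshold, and over the alternatives with no replicate block it ran from 0.0551 to 0.347. With the block it was 0.102 with the deeper libraries paired and 0.00259 with the deeper control paired with the shallower induced library. Genes with high counts as a whole were slightly lower after induction, with a median of -0.15 for the 2422 genes tested with a mean of 1000 or more. After genes were put in 20 bins by mean and the median of its bin was taken from each gene, the difference of *Itgb1* was -0.29 with an adjusted p of 0.347.

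Among the α chains that pair only with β1, *Itga2* (chr13:115626124-115722249, minus strand), the collagen-binding chain, had 1730 and 1074 normalised counts in the deeper and shallower control library and 931 and 1133 in the deeper and shallower induced library. The deeper control library alone was high, and the other 3 overlapped. The log2 difference was -0.41 with a standard error of 0.19, and the adjusted p of limma was 0.349. It turned on the control library read: without the deeper one the difference was -0.06, with an adjusted p of 0.918, and without the shallower one it was -0.75, with an adjusted p of 0.0452. With the replicate block its adjusted p was 0.391 with the deeper libraries paired and 0.0264 in the other pairing. *Itga3* (chr11:94905788-94938115, minus strand), the chain of the laminin receptor α3β1, had 3862 and 4143 in the control and 3874 and 4308 in the induced libraries. These were nearly the same pairs of values, with a log2 difference of 0.03 and a 95% interval from -0.21 to 0.28, so that a loss as large as the one estimated for *Itgb1* lies outside the interval of *Itga3*. The difference between the genes was not itself tested. *Itga5* (chr15:103174720-103197194, minus strand), the fibronectin-binding chain, had 870 and 790 in the control and 686 and 678 in the induced libraries. Its groups did not overlap, the log2 difference was -0.28 (standard error 0.11, interval -0.53 to -0.03), and the adjusted p of limma was 0.262.

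The remaining described α chains that pair only with β1 were scarce. *Itga8* (chr2:12028259-12223547, minus strand), whose product binds nephronectin, the ligand by which the bulge anchors the arrector pili muscle, had 21.0 and 14 normalised counts in the deeper and shallower control and 22.1 and 21.7 in the deeper and shallower induced library. It was the only 1 of the 10 genes with both induced libraries above both controls, by 22.1 and 21.7 against a highest control of 21.0. The log2 difference of 0.33 had a 95% interval from -0.73 to 1.40, which holds a loss as well as a gain. *Itga9* (chr9:118515808-118810121, plus strand), the tenascin-binding chain, had 12.9 and 16.8 in the control and 16.1 and 25.9 in the induced libraries, with a log2 difference of 0.45 and an interval from -0.70 to 1.60. The added count of 1 makes such differences too small for genes as low as these. The smooth muscle markers *Acta2*, *Des* and *Myh11*, of a cell type in which *Itga8* is also known to be expressed, summed to 108 and 51.7 normalised counts in the control and 158 and 103 in the induced libraries, and their part in the *Itga8* values was not tested. *Itga8* overlaps 1 annotated gene, and *Itga9* and *Itgav* overlap 2 each, and the strand setting of the counting is not given in the sources used here.

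**Figure D3:**
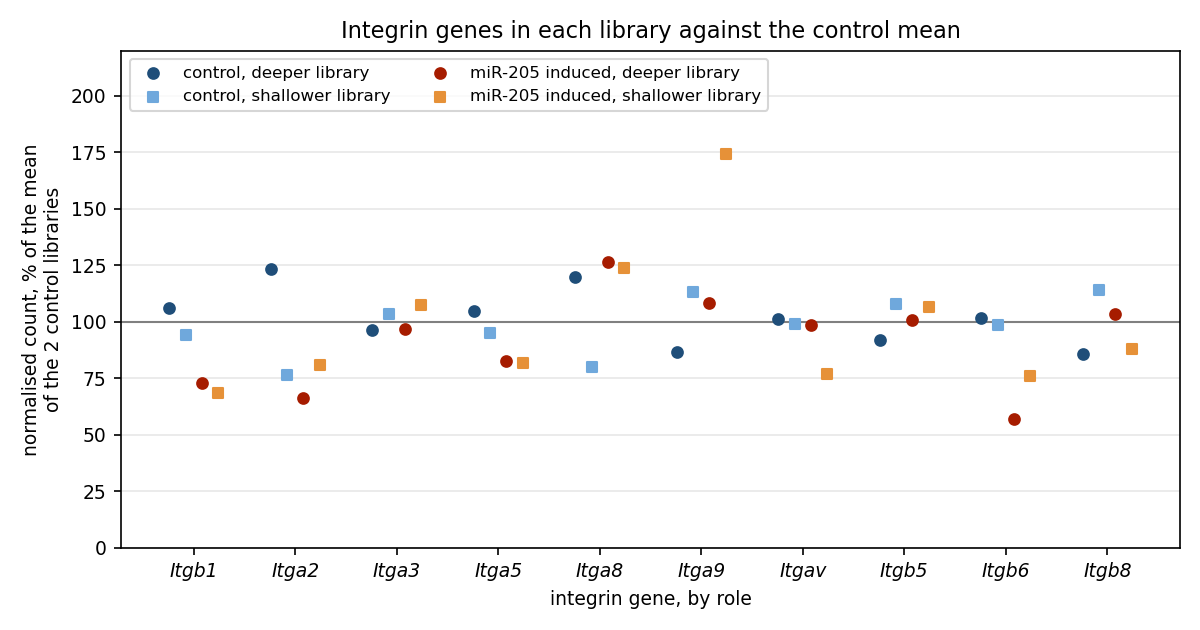
Normalised count of each integrin gene in the 4 libraries as a percentage of the mean of the 2 control libraries (line at 100), ordered by role. Both induced libraries lie below both control libraries for Itgb1, Itga5, Itgav and Itgb6, while for Itga2 the deeper control library alone is high.

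*Itgav* (chr2:83564554-83647073, plus strand) encodes αv, which pairs with β1, β3, β5, β6 and β8 and binds matrix proteins with an RGD motif. It had 1938 and 1896 normalised counts in the deeper and shallower control library and 1888 and 1475 in the deeper and shallower induced library. The deeper induced library lay close to both controls, and the shallower one alone was clearly lower. The log2 difference was -0.20 with an interval from -0.48 to 0.08, and the adjusted p of limma was 0.50. The difference was -0.02 without the shallower and -0.38 without the deeper induced library. It was -0.18 without the deeper and -0.22 without the shallower control library.

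Of the β chains that pair with αv alone, *Itgb6* (chr2:60436349-60560700, minus strand) had the largest difference of the 10 genes relative to its error after *Itgb1*. β6 is the epithelial chain of αvβ6, which activates latent TGF-β and is known from wound keratinocytes. *Itgb6* had 967 and 938 normalised counts in the control libraries and 544 and 726 in the deeper and shallower induced library. The control pair differed 1.03-fold and the induced pair 1.34-fold, and the groups did not overlap. The log2 difference was -0.60 with a standard error of 0.14 and an interval from -0.92 to -0.28, which leaves 66.0% of the control level (interval 52.9% to 82.3%). The adjusted p of limma was 0.0702. It passed the threshold without a filter on low values, at 0.0439, and without the shallower induced library, at 0.0153 with a difference of -0.81, and lay between 0.0654 and 0.306 in the other alternatives with no replicate block, highest without the deeper induced library, where the difference was -0.39. With the replicate block its adjusted p was 0.0938 with the deeper libraries paired and 0.00051 in the other pairing. With the bin medians subtracted the difference was -0.55.

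*Itgb8* (chr12:120396495-120477275, minus strand), the other chain with a 7-base match and also a partner of αv in TGF-β activation, had 480 and 639 normalised counts in the deeper and shallower control library and 578 and 492 in the deeper and shallower induced library. Each induced value lay between the control values. The log2 difference was -0.06 with an interval from -0.41 to 0.29. The genes that share the match thus had differences of -0.60 and -0.06, and the genes without it ranged from -0.50 to 0.45. *Itgb5* (chr16:33829751-33949239, plus strand), the vitronectin-binding chain of αvβ5, had 1046 and 1230 in the control and 1147 and 1214 in the induced libraries, with a log2 difference of 0.06 and an interval from -0.20 to 0.32.

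Sums per kb of transcript placed the chains against each other within a library. Among the β chains that pair only with αv, *Itgb6* made up 33.5% and 29% of the summed level in the deeper and shallower control library and 20.3% and 24.9% in the deeper and shallower induced library. *Itgb5* made up 57.0% and 59.7% in the control and 67.4% and 65.5% in the induced libraries, so that the groups did not overlap for either chain. Shares within a library make up a whole, so a lower share of one chain raises the others and these are not separate results. The log2 difference of *Itgb5* itself was 0.06. *Itgb8* held 9.50% to 12.3% in all 4 libraries with no separation of the groups. The summed level of these β chains was 2.08 to 2.90 times that of *Itgav*. On the β1 side, *Itga3* made up 57.2% and 66.7% of the summed level of the 5 described α chains that pair only with β1 in the control libraries. In the induced libraries it made up 68.2% and 68.0%, and *Itga8* and *Itga9* together stayed under 1% in every library. The level of *Itgb1* was 1.84 and 1.77 times the sum of these 5 α chains in the control libraries and 1.51 and 1.26 times in the induced libraries. That sum leaves out αv and the α genes of other lists, such as *Itga1* and *Itga6*. *Itga6* had 12278 to 14019 normalised counts, not divided by length, so these shares and ratios hold for the chosen chains only. *Itgb1* made up 53.3% and 50.9% of the summed level of the 10 genes in the control libraries and 47.3% and 44% in the induced libraries. These ratios are of RNA and do not count receptor pairs. With 2 libraries per group an exact permutation test cannot go below a two-sided p of 0.333, so none was used for them.

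**Figure D4:**
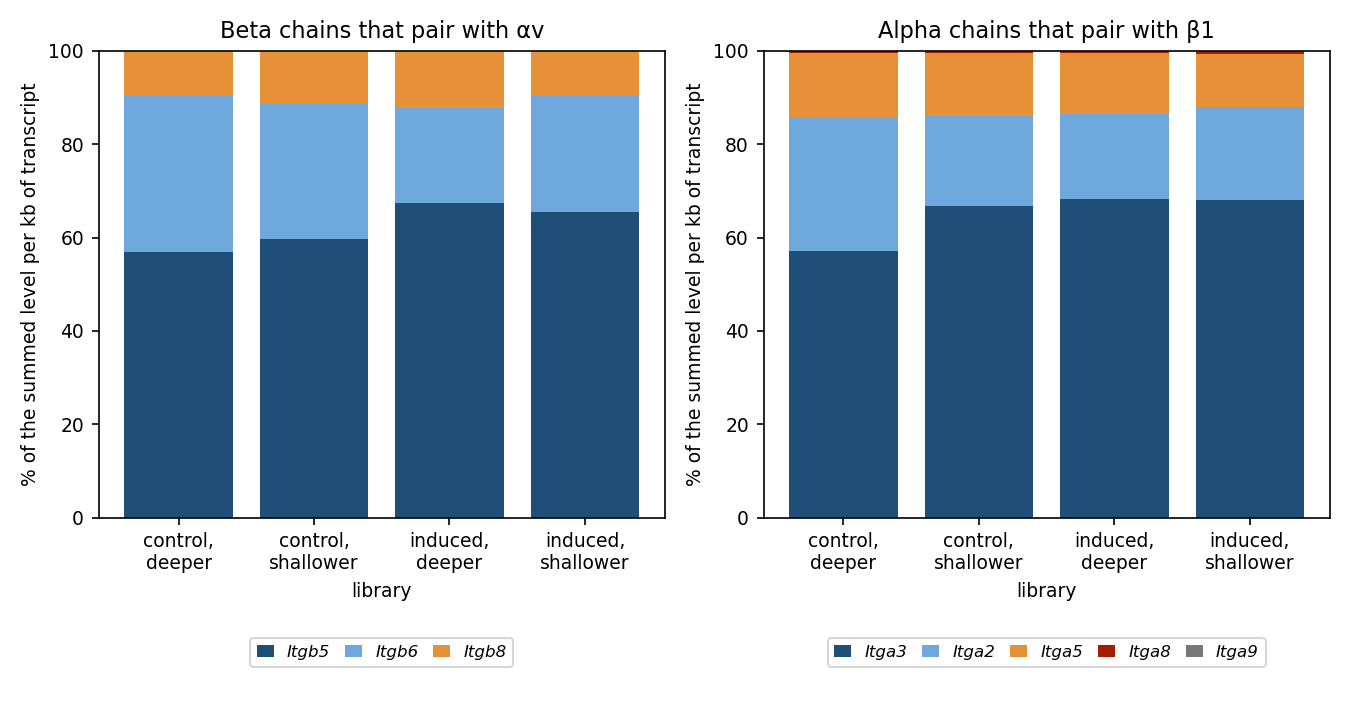
Share of each chain in the summed level per kb of transcript, by library. The left panel holds the 3 described β chains that pair only with αv. The right panel holds the 5 described α chains that pair only with β1, without Itgav and the α genes of other lists. The share of Itgb6 was 29% or more in the control libraries and 24.9% or less in the induced libraries. Itga3 was the largest of these 5 α chains in every library.

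Other genes of the integrin pathway were read from fixed lists. The integrins of the hemidesmosome had 0 of 2 genes called and a median log2 difference of -0.21. The sort used the α6 protein, so *Itga6* is not read as a result. *Itgb4*, its β4 partner and the one with the higher mean count, had 19686 and 18423 normalised counts in the control and 14414 and 16293 in the induced libraries, with a log2 difference of -0.31 (standard error 0.13, limma adjusted p 0.272). Of the integrins of leukocytes and platelets, 8 of 9 were tested and 0 called, with a median of 0.52. The highest mean count was that of *Itga2b*, the platelet αIIb chain, with 194 and 123 in the control and 131 and 153 in the induced libraries. *Itgb2*, the β2 chain of leukocytes, had 37.2 and 30.7 against 130 and 55.9 and is named after its values were seen, beside the myeloid markers given above. Of 6 other integrins, 3 were tested and 0 called, with a median of 0.00, and the highest mean count was that of *Itga1*, another collagen-binding partner of β1, at 226 to 305 normalised counts.

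Of the 13 activators and linkers on the cytoplasmic side of integrins, all were tested and 0 were called, with 7 differences below 0 and 6 above and a median of -0.04. *Vcl* (vinculin, which ties talin to actin), with the highest mean count of the list, had 6277 and 5503 normalised counts in the control and 4048 and 4208 in the induced libraries. Its groups did not overlap, with a log2 difference of -0.51, a standard error of 0.11 and an adjusted p of limma of 0.0570. *Vcl* passed the threshold with voom weights and without a filter on low values. It was not called with pseudocounts of 0.5 or 5, a mean of at least 50, scaling by the total count or the bin medians subtracted. *Tln1* (talin, which binds the β tail and is named after its values were seen) had 5002 and 4498 against 3481 and 3546, with a log2 difference of -0.43 and an adjusted p of limma of 0.0807. *Ilk* (integrin-linked kinase, at the β1 tail) had 546 and 563 in the control and 596 and 605 in the induced libraries. Its groups did not overlap, with a log2 difference of 0.12 and an adjusted p of limma of 0.685.

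Of 15 matrix ligands, 13 were tested and 0 called, with a median of -0.01. *Thbs1* (thrombospondin), with the highest mean count of the list, has only the authors' mean of 128249 normalised counts, since its counts could not be recovered, and *Vtn*, the ligand of αvβ5, had a mean under 10. Ligands of the chains described above are named after their values were seen. *Fn1*, the fibronectin bound by α5β1, had a log2 difference of 0.14, and *Tnc*, the tenascin bound by α9β1, of -0.06. *Npnt*, the nephronectin bound by α8β1, had 5617 and 6946 normalised counts in the control and 4958 and 3968 in the induced libraries, with a log2 difference of -0.49 and an adjusted p of limma of 0.125.

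Of 8 genes of latent TGF-β, the complex on which αvβ6 and αvβ8 act, 1 was called lower and 0 higher at an adjusted p under 0.05, with 5 differences below 0, 3 above and a median of -0.09. *Ltbp2*, a latent TGF-β binding protein of the matrix, had 7165 and 8218 normalised counts in the control and 5176 and 4399 in the induced libraries, with a log2 difference of -0.69, a standard error of 0.13 and an adjusted p of limma of 0.0296. It was not called after scaling by the total count, with the bin medians subtracted, or without the deeper control, the shallower control or the shallower induced library. With the replicate block it was called only with the deeper control paired with the shallower induced library, where *Itgb2*, *Vcl*, *Tln1* and *Npnt* also passed, and with the deeper libraries paired no gene of these lists did. *Ltbp4*, with the highest mean count of the list, had 6417 and 7206 in the control and 6960 and 7281 in the induced libraries, a log2 difference of 0.07. *Tgfb1*, a TGF-β gene named after its values were seen, had 501 and 448 in the control and 622 and 613 in the induced libraries, with a log2 difference of 0.38 and an adjusted p of limma of 0.163.

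**Figure D5:**
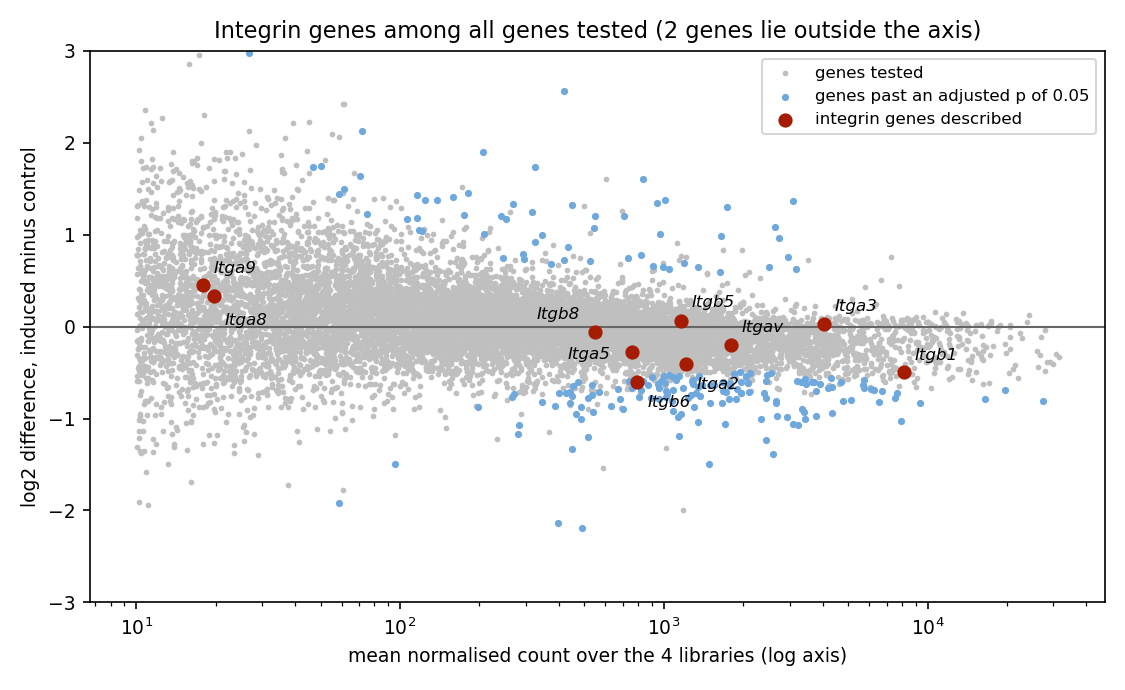
Log2 difference, induced minus control, against the mean normalised count over the 4 libraries (log axis) for the 12660 genes tested (grey), the 204 genes past an adjusted p of 0.05 (blue) and the 10 integrin genes (red). Itgb1 and Itgb6 lie in the lower part of the cloud of genes at their level, where other genes lie lower still. None of the 10 is among the called genes, and 2 genes lie outside the axis.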

How the data were processed

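RNA of sorted HF-SCs was sequenced in 2 control and 2 induced libraries. The authors prepared directional libraries and used HISAT2 2.1.0 for alignment, SAMtools 1.3.1 for conversion, HTSeq for counts per gene and DESeq2 for the comparison. The build is named mm10 in the submitters' notes and in a mixed form in the methods. The deposited mean is a signal, the authors' average over 4 libraries of counts divided by size factors. The deposited fold change and its standard error are on the log2 scale. The authors' statistic, p and adjusted p were not used.

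The 15 digits of a mean under 1000 fix the 4 whole counts behind it. Below a mean of 1000, all 14591 genes had exactly 1 set of counts. Of 2453 genes at or above 1000, 2422 were resolved by choosing, among the sets a mean allows, the one that gives the deposited fold change and standard error, within 1e-06 and, for those left, 1e-05, a limit added after the first had been seen to miss genes. These 2 columns also showed which libraries belong to which group and are printed nowhere. *Itga2*, *Itga3*, *Itgav*, *Itgb1* and *Itgb5* were resolved in this way, and the other 5 members from the mean alone. In 31 genes, all with a mean of 1.27e+04 or more, counts were not recovered.

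The groups were compared with limma 3.58.1 in R 4.3.3 (lmFit, eBayes with a trend) on log2(normalised count + 1) over 12660 genes with a mean of at least 10 with Benjamini-Hochberg adjustment over the same genes. Recovery and fit were first tested on simulated data. Alternatives were pseudocounts of 0.5 and 5, no filter, a mean of at least 50, voom weights and subtraction of the medians of 20 bins. Further ones were scaling by the total count of the recovered genes, without the 31 others, an unadjusted p and each library left out. Both possible pairings of control with induced libraries were added as a replicate block after the data were seen. In the main fit a gene had 2 residual degrees of freedom of its own, and the prior drawn from all genes had 8.238. The p-values therefore rest mostly on the spread of other genes, and more so with the block, which leaves fewer residual degrees of freedom. Lengths, places and 3′UTRs are from GENCODE vM1 on NCBIM37, matched by symbol (10 of 10 members), and no coordinate was converted. For the sites, the 3′UTR of the longest coding transcript was added after the data were seen. All members are described. Of each pathway list the text names the genes called and the most abundant gene, and other list genes were named after their values were seen. The members and lists were chosen with earlier results of these data known. Python 3.11.15, numpy 2.4.6, pandas 2.3.3 and matplotlib 3.10.9 were used.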

Additional observations from a re-analysis of the deposited data

How the results depend on the processing

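The recovered libraries could not be tied to the replicate numbers of the labels, so both possible pairings were fitted as a replicate block, an alternative added after the data were seen. With the deeper libraries paired, 123 genes were called, 0 of the 10 integrins and 0 other list genes. With the deeper control paired with the shallower induced library the block gave 1024 genes, 3 of the 10 integrins and 9 other list genes. Which pairing is the labelled one was not known, and a larger count does not decide it. The number of genes called was 204, 144 lower and 60 higher, and became 307 with no filter, 103 with the bin medians subtracted, 1994 at an unadjusted p under 0.05 and 68 to 284 with 1 library left out. Lower genes were 70.6% of the calls, 37.6% (85 of 226) after scaling by the total count, which moved the median of all genes to 0.15, 57.3% with the bin medians subtracted, and 57.4% and 52.1% without the deeper control or the deeper induced library. Of the 10 integrins, 0 were called, with 1 (*Itgb6*) under no filter, 0 to 1 with 1 library left out (*Itga2* without the shallower control, *Itgb6* without the shallower induced library) and 3 at an unadjusted p under 0.05. Of the other list genes 1 was called, with 2 under no filter, 2 with voom weights, 0 after scaling by the total count, 0 with the bin medians subtracted, 0 to 3 with 1 library left out and 15 at an unadjusted p under 0.05. Among 108 values of single integrins under these alternatives, the block and the unadjusted p left aside, 99 kept their direction and their side of the threshold, 3 passed it and 6 changed sign. *Itgb8* was at 0.086 after scaling by the total count, below the shift of all genes, and with 1 library left out it ran from -0.26 to 0.15, *Itga3* from -0.046 to 0.11 and *Itgb5* from -0.060 to 0.17. With the 6-base match 5 genes held a site in place of 2, and by coding length 5 of 10 genes kept their place in the order of levels. The cause was not tested. The 2 libraries per group limit every value, and 10 to 26 reads per library limit *Itga8* and *Itga9*.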
